A study of Homo sapiens with 9 samples.

Results

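The 80 genes described here encode the proteins of the cytoplasmic ribosome: 48 of the large subunit (RPL and RPLP symbols) and 32 of the small subunit (RPS symbols and RPSA). They were chosen by symbol alone among the 60603 genes of the table, so that mitochondrial ribosomal proteins, the fusion gene FAU and the paralogs with other endings (RPL7L1, RPL22L1, RPL26L1, RPL36AL) were not members and were examined as separate lists. Of the 80 genes, 78 passed the filter on low counts and were tested. The other 2 were germline or muscle paralogs: RPL10L had 0 counts in every library, and RPL3L had between 1 and 6 counts.

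RNA was sequenced from TC32, an Ewing sarcoma line long kept in culture and driven by the fusion EWS::FLI1, in 3 groups of 3 libraries. All groups had the genotype label WT, the same batch label, the same growth medium with 10% serum, and 30 h of culture, and each group was 1 cell line. The siEF group was plated on an siRNA across the breakpoint of EWS::FLI1, the siNEG group received a nonspecific siRNA, and the Media group carried the treatment label Media, although 1 protocol text, which mentions siRNA, is shared by all samples. The comparison of siEF with siNEG asked how the ribosomal protein genes responded when the fusion was silenced. In turn, siNEG against Media asked how cells given the nonspecific siRNA differed from cells labelled Media. That comparison cannot separate the siRNA from the procedure that delivered it. In the check of silencing, NR0B1, a target that the fusion activates, had 433, 413 and 498 counts in siEF against 4518, 4527 and 4213 in siNEG. PHLDA1, a target that the fusion represses, was at 119.5 ± 7.25 CPM (SD, n = 3) in siEF against 3.19 ± 0.111 CPM (SD, n = 3) in siNEG, where CPM is counts per 1000000 counts of the scaled library. FLI1, whose 3′ part lies in the fusion, fell to 37.8 ± 2 CPM (SD, n = 3) from 48.4 ± 0.315 CPM (SD, n = 3) in siNEG (log2 fold change -0.35, SE 0.06, adjusted P = 2.88e-05, edgeR). In Media, FLI1 stood at 57.9 ± 1.65 CPM (SD, n = 3). The siNEG group thus differed from Media by -0.26 on the log2 scale for FLI1 (adjusted P = 0.00347, edgeR). In the same comparison NR0B1 differed by -0.37 (adjusted P = 0.00105, edgeR), and PHLDA1 by 0.04 without passing (adjusted P = 0.85, edgeR). Total counts ranged from 20727706 to 33134581 per library. Of 10 Ewing sarcoma markers, 9 were lower and 1 (CD99) was higher in siEF than in siNEG. These 10 include FLI1 and EWSR1, the genes of the fusion, and NR0B1, so they are not independent of the check above. Their summed level ran from 944 to 966 CPM in siEF, from 1580 to 1620 CPM in siNEG and from 1900 to 1980 CPM in Media. GLG1 and EWSR1 were the largest parts of the sum in siEF and siNEG. Of the 10, 6 were called lower and 0 higher in siNEG than in Media. Of 12 markers of blood, endothelial, epithelial, muscle and liver cells, CD3E, MYOD1 and MYOG were at 0 counts in every library. Only 5 passed the filter on low counts. Of these, 4 were called higher and 1 lower in siEF than in siNEG, all beyond 1 on the log2 scale, with a median of 3.17. Against Media, 3 were called higher and 1 lower in siEF, with a median of 2.1, and 1 was called lower in siNEG than in Media. A marker low in the other groups can pass the filter through its siEF counts, so these calls are no independent evidence. The summed level of all 12 was between 11.7 and 13.3 CPM in siEF, between 4.6 and 7.49 CPM in siNEG and between 6.38 and 7.37 CPM in Media. The part of these markers in the results was not tested.

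Ribosomal proteins are made in near-equal numbers, 1 copy of nearly every protein per ribosome, and their mRNAs are among the most abundant of a growing cell. Nearly all of these mRNAs start with a C followed by a run of pyrimidines, the 5′ terminal oligopyrimidine (TOP) motif, through which the kinase mTOR and the RNA-binding protein LARP1 control their translation and stability. The proteins are carried by dedicated chaperones into the nucleolus, where they join the ribosomal RNA, and an excess of free RPL5 and RPL11 binds MDM2 and stabilises p53.

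The start sites of the genes with the highest and lowest response to silencing are printed first, because the TOP motif sits there. RefSeq promoters on GRCh38.p14 were matched for 63 of the 80 genes. Each line gives 15 bases before and 15 bases from the annotated start, 5′ to 3′ on the strand of the gene, and capitals mark a run of C and T that opens at the start with a C. The first 5 genes were the ones with the highest fold change of siEF against siNEG and a matched promoter (RPL37, also among the highest, had no match), and they lie at chr19:49487593-49487622, chr11:8682777-8682806, chr19:55385917-55385946, chr1:23691764-23691793 (all on the plus strand) and chr1:6199581-6199610 (minus strand).
RPL13A: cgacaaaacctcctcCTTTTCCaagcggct
RPL27A: ttggcgaaggccttcCTTTTTCgtctgggc
RPL28: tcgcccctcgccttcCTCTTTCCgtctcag
RPL11: cgcctcctggcccataaggccctcggccgg
RPL22: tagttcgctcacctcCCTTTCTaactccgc
The next 5 were the ones with the lowest fold change and a matched promoter (RPL39L had none), at chr14:49598696-49598725 (minus strand), chr17:42998404-42998433 (plus), chr19:1438381-1438410 (plus), chr9:124861943-124861972 (minus) and chr12:56041903-56041932 (plus).
RPS29: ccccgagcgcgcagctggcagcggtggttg
RPL27: ccggggtgaaaggttagcggaagtgtcctt
RPS15: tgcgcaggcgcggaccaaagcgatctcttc
RPL35: agccccgcctacttcCTCTTTCCCTCggag
RPS26: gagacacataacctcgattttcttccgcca

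A C at the annotated start followed by at least 4 pyrimidines was present in 42 of the 63 matched ribosomal protein promoters (66.7%). The same letters were found in 5.01% of the 10879 other tested genes and in 4.04% of all 27305 promoters of the table. Where the C could lie within 5 bases of the annotated start, the share was 79.4% of the members against 22.5% of the other tested genes. Among the printed starts, the run opened the transcripts of RPL13A, RPL27A, RPL28, RPL22 and RPL35, and it was not at the annotated start of RPL11, RPS29, RPL27, RPS15 and RPS26. Fold changes with and without the run overlapped over most of their range: the median difference between siEF and siNEG on the log2 scale was 0.14 in the 42 genes with it (range -0.14 to 0.52) and 0.20 in the 20 tested genes without it (range -0.18 to 0.38). The window from 250 bases before to 50 bases after the start was also searched on both strands for the ETS core CCGGAA, which 55.6% of the members and 28.7% of the other tested genes held. The median log2 fold change was 0.20 in the 34 tested members with CCGGAA and 0.12 in the 28 without it. The tandem GGAAGGAA, the repeat unit that EWS::FLI1 binds in microsatellites and which shares its GGAA with the ETS core, was found in 3.17% of the members (RPL22 and the untested RPL10L) and 3.4% of the other tested genes. The letters TATAAA were found in 9.52% of the members and 5.72% of the other tested genes, and the E-box CACGTG in 4.76% and 10.1%.

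Ribosomal protein genes took a larger share of all counts after silencing. The share was 7.89%, 8.28% and 7.70% in siEF replicates 1, 2 and 3. In siNEG it was 7.43%, 7.03% and 7.23%, and in Media 7.14%, 6.81% and 6.61%. Every siEF library was above every control library. The means were 7.96% ± 0.296 (SD, n = 3) in siEF, 7.23% ± 0.196 (SD, n = 3) in siNEG and 6.85% ± 0.267 (SD, n = 3) in Media. In the plot of shares by library, the mitochondrial ribosomal proteins ran the other way, at 0.305% ± 0.00779 (SD, n = 3) in siEF and 0.464% ± 0.00624 (SD, n = 3) in siNEG. The cytoplasmic counts were thus 25.8 to 26.5 times the mitochondrial ones in siEF, 15.3 to 15.8 times in siNEG and 14.4 to 14.7 times in Media. Shares of counts add up to the whole, and the 10 most abundant genes of a library, none of them a member, took 12.3% to 12.9% of the counts in siEF and 5.78% to 6.62% in the other libraries. In bulk RNA a change per cell cannot be told apart from a change in the number of cells or in total RNA.

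**Figure D1:**
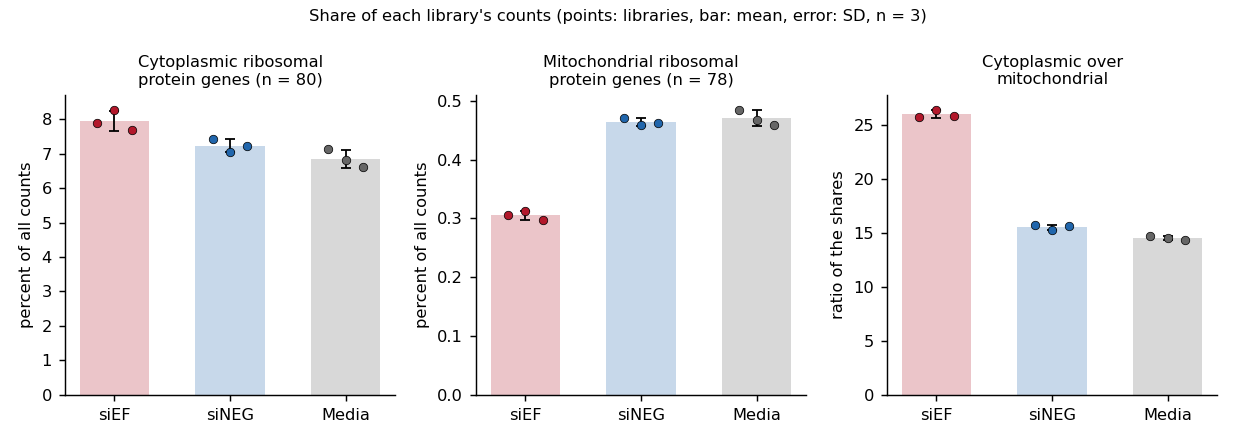
Share of all counts of each library (percent, vertical axis) in the 80 cytoplasmic and the 78 mitochondrial ribosomal protein genes, and the ratio of the shares, in siEF, siNEG and Media. Points are libraries, bars are means and error bars are SD (n = 3); the 3 siEF libraries are above all others for cytoplasmic genes (7.70% to 8.28%) and below all others for mitochondrial genes.

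Between siEF and siNEG, 40 of the 78 tested ribosomal protein genes rose, 2 fell (RPL39L and RPS26) and 36 did not pass the test (edgeR's quasi-likelihood test, adjusted P under 0.01). Over all 16093 genes tested, 33.6% were called higher and 31.7% lower. None of the 78 changed more than 2-fold, whereas 28.8% of all genes were called beyond 1 on the log2 scale, up or down. With DESeq2, too, 0 members were called beyond 1 on the log2 scale. At an unadjusted P under 0.05 there were 54 of the 78 members, against 75.5% of all genes (edgeR). The fold changes of the family lay in a narrow band around a small rise. Their median was 0.16 with an SD of 0.184 on the log2 scale, against a median of 0.05 and an SD of 1.399 over all genes tested. A small rise in a narrow band was not particular to the family. In a list of 19 other mRNAs with a TOP motif the median was 0.23 and the SD 0.262. All 3 siEF libraries were above all 3 siNEG libraries in 47 members and below in 3, against 39.8% and 37.1% of all genes. These genes were measured precisely, with a median of 21620 counts per library against 508 over all genes tested, so that small differences could pass: the median SE of the log2 fold change was 0.0533 for members and 0.0889 for all genes. The count of calls depended on the scaling. It was 30 higher and 3 lower with library totals and 57 higher and 1 lower with the upper quartile. A change of scaling moves all genes together, and the median of all genes tested was then -0.015 and 0.132.

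**Figure D2:**
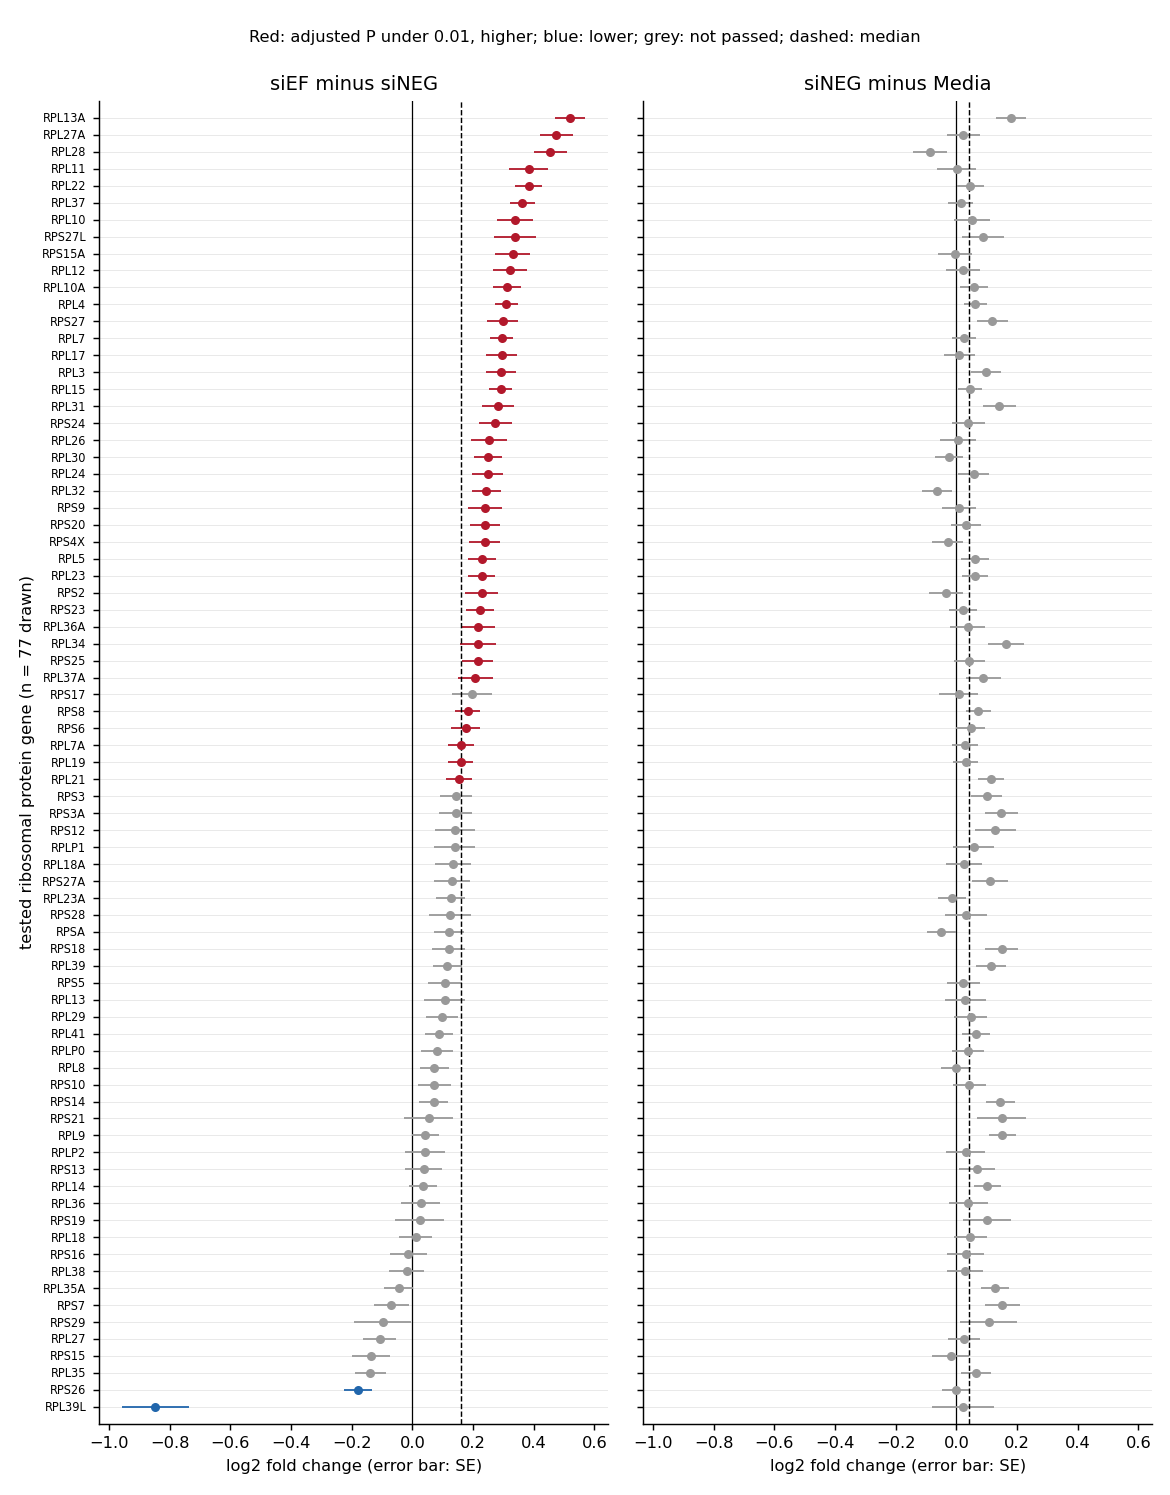
Log2 fold change of 77 of the 78 tested ribosomal protein genes (horizontal axis, error bars SE), ordered by siEF minus siNEG on the left, with siNEG minus Media in the same order on the right. Red and blue points passed the test as higher (39) or lower (2) in siEF, grey points did not pass, dashed lines are the medians of all 78 (0.16 and 0.04), and no point on the right is coloured. The gene not drawn is not reported here by name and is 1 of the 40 called higher.

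The largest rise was that of RPL13A, a large-subunit protein that is also known for a role outside the ribosome in repressing the translation of inflammatory mRNAs. Its gene (ENSG00000142541.17, chromosome 19, 49487510 to 49493057, GRCh38) was at 2973, 3104 and 2953 CPM in siEF, 2154, 2041 and 2102 CPM in siNEG and 2010, 1783 and 1764 CPM in Media. The siEF libraries were all above the others, and the log2 fold change against siNEG was 0.52 (SE 0.05, adjusted P = 7.43e-08, edgeR), a 1.43-fold rise.

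RPL27A was at 1633, 1631 and 1641 CPM in siEF and at 1276, 1132 and 1121 CPM in siNEG. Its log2 fold change was 0.48 (SE 0.05, adjusted P = 5.71e-07, edgeR), with no overlap between the groups. RPL28 had 838, 822.5 and 813.7 CPM in siEF and 625.5, 565.8 and 614.3 CPM in siNEG, a difference of 0.46 on the log2 scale (SE 0.06, adjusted P = 1.2e-06, edgeR). RPL22, a large-subunit protein that is dispensable for translation in many cells and binds a viral RNA, had 902.6, 891.2 and 907.4 CPM in siEF and 694.9, 692.8 and 683.6 CPM in siNEG. It differed by 0.38 (SE 0.05, adjusted P = 9.42e-07, edgeR), and its replicates lay close together in both groups. RPL37 had 659.9, 655.9 and 641.8 CPM in siEF and 521.5, 482.8 and 517.8 CPM in siNEG, a difference of 0.36 on the log2 scale (SE 0.04, adjusted P = 7.69e-07, edgeR). All 6 of the highest genes, RPL11 included, encode large-subunit proteins.

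The largest fall was that of RPL39L, a paralog of RPL39 that is best known from the testis, where its protein lines the exit tunnel of the ribosome in sperm-forming cells. RPL39L (ENSG00000163923.10, chromosome 3, 187120948 to 187180908, minus strand) was at 5.67, 6.56 and 5.45 CPM in siEF, at 11.4, 10.2 and 9.97 CPM in siNEG and at 11.04, 10.7 and 9.39 CPM in Media. The siEF values were below all others, from 134 to 159 counts against 269 to 362 in the control libraries. The log2 fold change against siNEG was -0.85 (SE 0.11, adjusted P = 3.01e-06, edgeR). RPS26, a small-subunit protein at the mRNA exit channel whose gene is mutated in Diamond-Blackfan anaemia, had 266.1, 275.3 and 270.6 CPM in siEF and 310.8, 298.2 and 310.4 CPM in siNEG. It differed by -0.18 (SE 0.05, adjusted P = 0.00227, edgeR), and the call was lost without siEF replicate 1 (adjusted P = 0.014) and with upper quartile scaling (adjusted P = 0.079).

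The next 4 from the bottom did not pass the test. RPL35 had 344.7, 353.1 and 334.9 CPM in siEF and 405.1, 356.9 and 373.9 CPM in siNEG, a log2 fold change of -0.14 (adjusted P = 0.0202, edgeR) without overlap of the groups. RPS15 was at -0.14, RPL27 at -0.11 and RPS29 at -0.10, with adjusted P of 0.0584, 0.0835 and 0.365 (edgeR). These values moved with single libraries. Without siEF replicate 2, RPS15 was at -0.205 and passed (adjusted P = 0.00757, edgeR), and RPS29 was at -0.234; without siEF replicate 3 they were at -0.089 and -0.002. RPL27 lay between -0.151 and -0.072, and RPL35 passed without siNEG replicate 2 (-0.187, adjusted P = 0.00586, edgeR). RPS29 varied most between the siEF libraries of all tested members, with 167.7, 207.9 and 152.3 CPM and a coefficient of variation of 16.3%. The median coefficient over the tested members was 3.57% in siEF, 4.3% in siNEG and 5.48% in Media.

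**Figure D3:**
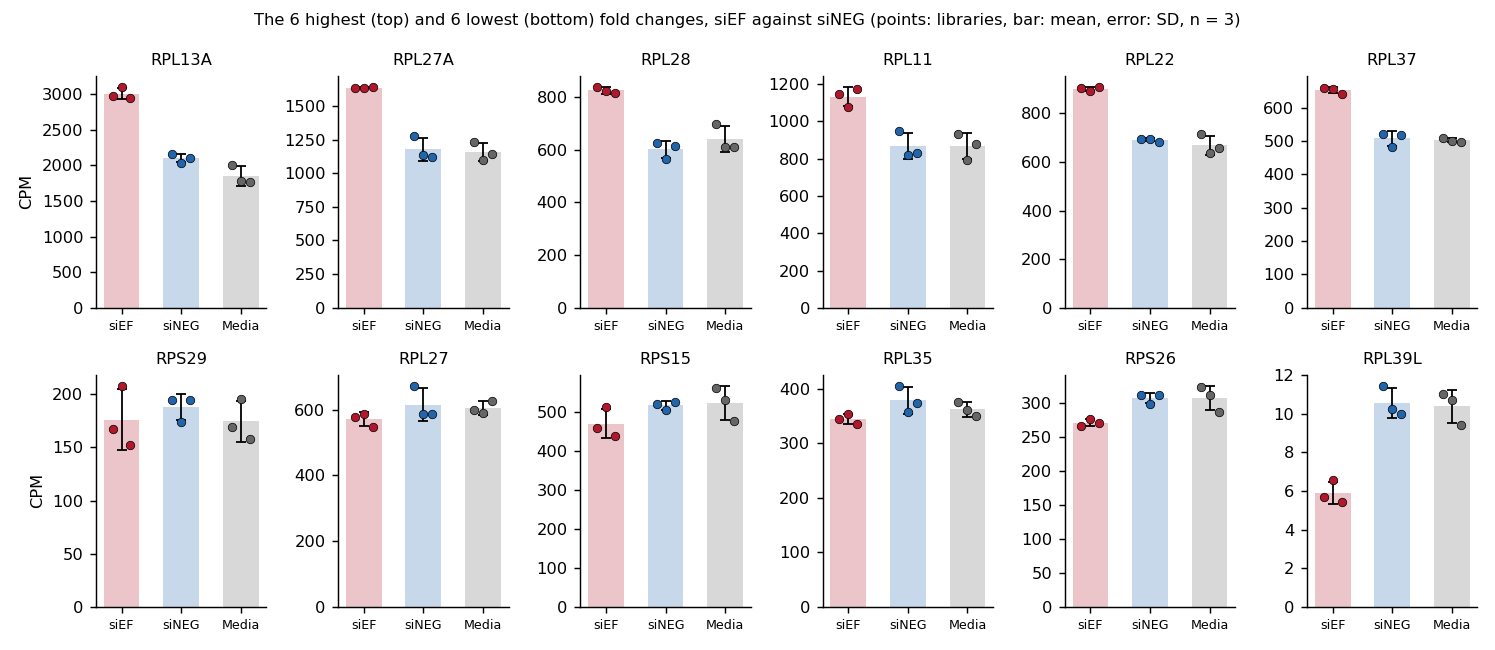
CPM of the 6 ribosomal protein genes with the highest (top) and the 6 with the lowest (bottom) log2 fold change of siEF against siNEG, in siEF, siNEG and Media. Points are libraries, bars are means and error bars are SD (n = 3); RPL13A is near 3010 CPM in siEF against 2099 CPM in siNEG, and RPL39L is at 5.9 CPM against 10.5 CPM.

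By subunit, 27 of 46 tested large-subunit genes rose and 1 fell, with a median log2 fold change of 0.21, and 13 of 32 small-subunit genes rose and 1 fell, with a median of 0.14. The ratio of large-subunit to small-subunit counts was 1.65, 1.63 and 1.66 in siEF and 1.55, 1.58 and 1.60 in siNEG, so that the siEF libraries were all above the siNEG libraries. In Media the ratio was 1.57, 1.57 and 1.56. The counts by group, here and in the next paragraphs, stand beside 40 of the 78 members called higher and 2 lower. Over all genes tested, 33.6% were called higher and 31.7% lower, and small groups near these shares are no result of their own.

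Of the stalks of the large subunit, 2 of 5 genes rose. RPL12, at the base of the P stalk, which recruits the GTPase factors of translation, rose by 0.32. RPL10A, of the separate L1 stalk on the side where tRNA leaves, rose by 0.31. RPLP0, RPLP1 and RPLP2, which form the P stalk itself, were at 0.08, 0.14 and 0.04 on the log2 scale and did not pass (adjusted P = 0.17, 0.0743 and 0.584, edgeR). For RPLP1 the siEF libraries had 886.6, 1018 and 855.8 CPM against 841.3, 813.1 and 850.8 CPM in siNEG. The highest of the 3 values was that of siEF replicate 2, the library with the fewest counts and the largest ribosomal protein share. Leaving it out brought RPLP1 to 0.058 and RPLP0 to 0.04, the lowest values over the 6 libraries left out in turn, and the highest, both without siEF replicate 3, were 0.189 and 0.101.

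In a chosen list of 7 genes for proteins that bind MDM2, 6 rose, and the count belongs to this list only. Of the 78 members 40 were called higher, and of all genes tested 33.6%. RPL11, which with RPL5 and the 5S RNA forms the 5S particle, had 1148, 1075 and 1175 CPM in siEF and 949.7, 821.5 and 832.6 CPM in siNEG. Its log2 fold change was 0.38 (SE 0.06, adjusted P = 4.85e-05, edgeR). RPL5 rose by 0.23 (SE 0.05, adjusted P = 0.000274, edgeR), from 1444, 1286 and 1314 CPM in siNEG to 1582, 1604 and 1560 CPM in siEF. RPL23, RPL26, RPS27 and RPS27L rose by 0.23, 0.25, 0.30 and 0.34, though RPL26 lost its call without siNEG replicate 2 (0.20, adjusted P = 0.0121, edgeR). RPS7 was at -0.07 (adjusted P = 0.291, edgeR), and at 0.02 with upper quartile scaling.

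In a chosen list of 5 genes for proteins on the side of the large subunit that holds the peptidyl transferase centre, 3 rose. RPL10, which closes the late maturation of the large subunit, was at 2995, 3346 and 2960 CPM in siEF and 2393, 2432 and 2530 CPM in siNEG, a difference of 0.34 on the log2 scale (SE 0.06, adjusted P = 6.64e-05, edgeR). RPL3, which reaches into the centre, rose by 0.29 (SE 0.05, adjusted P = 5.07e-05, edgeR). RPL8 and RPL29 were at 0.07 and 0.10 and did not pass. Along the exit tunnel, 5 of 8 genes rose, with RPL4 and RPL17 highest at 0.31 and 0.29, and RPL39 was at 0.12 (adjusted P = 0.0406, edgeR). RPL17 shares exons with the readthrough row RPL17-C18orf32, which was at 6.89 CPM in siEF and 13.5 CPM in siNEG, and how the authors' counting split reads between them was not tested.

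At the mRNA channel of the small subunit, 1 of 7 genes rose (RPS2, 0.23) and 1 fell (RPS26). The call of RPS2 was lost without siNEG replicate 1 (0.18, adjusted P = 0.015, edgeR). RPSA, the laminin receptor protein, was at 0.12 (adjusted P = 0.0346, edgeR). RPS6, the substrate of the S6 kinases, had 1598, 1605 and 1548 CPM in siEF and 1514, 1330 and 1360 CPM in siNEG. The log2 fold change was 0.18 (SE 0.05, adjusted P = 0.00338, edgeR), and the call was lost without any 1 of the siEF replicates 1 and 2 or the siNEG replicates 2 and 3, with adjusted P from 0.0136 to 0.0347. RPS27A, which is made as a fusion to ubiquitin, was at 0.13 (adjusted P = 0.0535, edgeR; 0.00672 without siNEG replicate 1), and the fusion FAU was at -0.075 without passing.

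Of 18 genes mutated in Diamond-Blackfan anaemia, a failure of red cell production, 7 rose and 1 fell, with a median of 0.10. This is near the share of all genes tested (33.6% called higher), and the median of the 78 members was 0.16. RPS19, the gene most often mutated there, was at 533.7, 646.7 and 511.3 CPM in siEF and 554.6, 540.2 and 568.6 CPM in siNEG. The log2 fold change was 0.02 (SE 0.08, adjusted P = 0.801, edgeR), and siEF replicate 2 alone was above the siNEG libraries.

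Per kilobase of the Ensembl canonical transcript, RPS2 had the highest level of the family, at 3581 CPM per kb over the 9 libraries, followed by RPL39 at 3001, RPS18 at 2741, RPLP0 at 2727 and RPL7A at 2413 CPM per kb. The lowest of the tested members were RPS27L at 7.55, RPL39L at 12.3 and RPL37 at 73.2 CPM per kb. The canonical transcript of RPL37 is annotated with 7573 bases and that of RPS27L with 6110, against 390 for RPL39, and which transcripts were present was not tested. Among these, RPS2 rose by 0.23 (adjusted P = 0.00138, edgeR) and RPL7A by 0.16 (adjusted P = 0.00257, edgeR; 0.0148, 0.0215 and 0.0167 without siEF replicate 2, siNEG replicate 2 and siNEG replicate 3), while RPS18, at 0.12 (adjusted P = 0.0579, edgeR; 0.006 without siNEG replicate 1), and RPLP0 did not pass. Across the 78 tested members the fold change rose with the level: the correlation with the mean log2 CPM was r = 0.56 (Spearman's rho = 0.38), and r = 0.42 (rho = 0.40) over the 76 members with a mean of at least 2000 counts. The genes of this description share their libraries and scaling, and no P value was computed.

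The paralog pairs changed their balance in several cases. RPL39L made up 0.454%, 0.489% and 0.446% of the summed RPL39L and RPL39 counts in siEF, and 0.924%, 0.887% and 0.871% in siNEG, with 0.889% to 0.985% in Media. RPL22L1, a paralog of RPL22 that substitutes for it, was at 18.8, 20.8 and 18.8 CPM in siEF and 11.3, 10.2 and 9.07 CPM in siNEG, a difference of 0.93 on the log2 scale (SE 0.11, adjusted P = 8.19e-07, edgeR). Since RPL22 rose as well, the share of RPL22L1 in the pair was 2.02% to 2.28% in siEF and 1.31% to 1.59% in siNEG, but 1.33% to 1.95% in Media. RPL7L1, whose yeast relative works in ribosome assembly, was at 183 to 193 CPM in siEF, 215 to 225 CPM in siNEG and 364 to 376 CPM in Media. It was thus lower in siNEG than in Media (log2 fold change -0.74, adjusted P = 6.18e-09, edgeR) and lower again in siEF than in siNEG (-0.23, adjusted P = 6.84e-05, edgeR). RPS27L, a p53 target, rose with its parent RPS27 (0.34 and 0.30), and its share was 6.03% to 6.21% in siEF and 5.75% to 6.15% in siNEG. RPL26L1 made up 3.80% to 4.33% of its pair in siEF and 4.63% to 4.69% in siNEG, and RPL36AL 13.3% to 15.3% and 15.7% to 17.0%, while neither gene passed the test itself. RPL3L and RPL10L stayed at or under 0.0119% of their pairs. Reads of near-identical copies can be split by the counting, so these shares are uncertain to that extent. Of the 1131 ribosomal protein pseudogenes of the table, the summed counts were 2.74 to 2.86 per 100 member counts in siEF and 2.78 to 2.93 in siNEG.

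**Figure D4:**
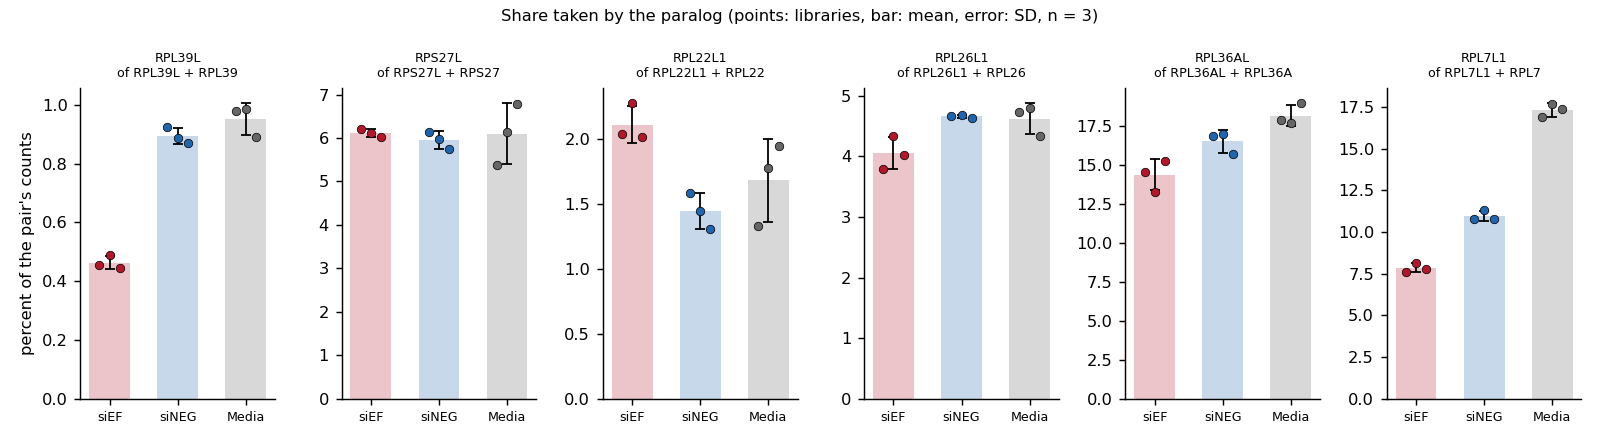
Share of each paralog in the summed counts of the paralog and its parent gene (percent, vertical axis) for 6 pairs, in siEF, siNEG and Media. Points are libraries, bars are means and error bars are SD (n = 3); the RPL39L share is 0.463% in siEF against 0.894% in siNEG, and the RPL7L1 share steps down from 17.3% in Media to 10.9% in siNEG and 7.86% in siEF.

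In siNEG against Media, no ribosomal protein gene passed the test. Between siNEG and Media, 0 of the 78 members were called higher and 0 lower, where 3.83% and 5.96% of all genes were called (edgeR's quasi-likelihood test). At an unadjusted P under 0.05, 13 were higher and 0 lower, against 13.9% and 16.3% of all genes, and all siNEG libraries were above all Media libraries in 13 members and below in 0, against 15.5% and 17.3% of all genes. DESeq2 called 3 members higher (RPL13A, RPL9 and RPS14, named after their values were seen). The median log2 fold change was 0.04 and the extremes were small. The sign leaned upward, with 66 members positive and 12 negative, against 7979 and 8084 of the 16093 genes tested. The mean share of counts was 7.23% in siNEG and 6.85% in Media. RPL13A, at 0.18 (adjusted P = 0.0194, edgeR), RPL34, at 0.16 (adjusted P = 0.0732), and RPS7, at 0.15 (adjusted P = 0.0846), were the highest. RPL28, at -0.09, and RPL32, at -0.06, were among the lowest. RPL13A was called higher without Media replicate 1 (0.24, adjusted P = 0.000646, edgeR).

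Against Media, which shares the siEF libraries with the first comparison, 49 members were called higher and 2 lower in siEF, again RPL39L (-0.83) and RPS26 (-0.18). Over all genes 33.6% were higher and 32.3% lower. The median of the members was 0.22, and RPL13A was highest at 0.70. No member was past a log2 fold change of 1, where 29.9% of all genes were called.

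The other genes of translation were read from lists of their own, and they did not move as a block. These lists overlap in part, so their counts are not independent of each other. For example, EEF1B2 is among both the other TOP mRNAs and the elongation and termination factors. Their counts stand beside 33.6% of all genes tested called higher and 31.7% called lower. Of 19 other mRNAs known to carry a TOP motif, 14 rose and 1 fell from siNEG to siEF, with a median log2 fold change of 0.23. EIF4B, a helper of the helicase that unwinds mRNA leaders, went from 990 to 1013 CPM in the siNEG libraries to 1589 to 1708 CPM in siEF, a difference of 0.72 on the log2 scale (SE 0.04, adjusted P = 9.03e-11, edgeR). PABPC1, the cytoplasmic poly(A)-binding protein, rose by 0.69 (SE 0.04, adjusted P = 2.45e-10, edgeR). IPO7, an import receptor for ribosomal proteins, fell by 0.29 on the log2 scale (adjusted P = 0.000117, edgeR), and EEF1B2 was at -0.09 without passing. Of 13 host transcripts of small nucleolar RNAs, several of which carry a TOP motif, 7 rose and 4 fell. The extremes were EPB41L4A-AS1 (1.27) and SNHG32 (0.74) at the top and SNHG12 (-1.44) and SNHG15 (-1.32) at the bottom. EPB41L4A-AS1 is named as antisense to EPB41L4A, and the strand setting of the counting was not given in the sources used here.

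Of 35 initiation factors, 9 rose and 22 fell, with a median of -0.37. EIF4E, the cap-binding protein, fell from 114 to 124 CPM in siNEG to 40.4 to 44.9 CPM in siEF, a difference of -1.45 on the log2 scale (SE 0.06, adjusted P = 1.04e-12, edgeR), and EIF2B3, a subunit of the exchange factor for eIF2, was at -1.39 (adjusted P = 3.78e-12, edgeR). EIF4A2 rose by 1.09 (SE 0.08, adjusted P = 1.53e-09, edgeR). Of 12 elongation and termination factors, 3 rose and 6 fell. The highest were EEF2 and EEF1A1, the abundant elongation factors with TOP mRNAs, at 0.50 and 0.49. The lowest were ABCE1, which splits the ribosome after termination, and HBS1L, which rescues stalled ribosomes. ABCE1 was at 34.4 to 35.0 CPM in siEF and 179 to 192 CPM in siNEG, a difference of -2.42 on the log2 scale (SE 0.06, adjusted P = 2.14e-15, edgeR), and HBS1L was at -1.69 (SE 0.05, adjusted P = 1.2e-14, edgeR).

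Chaperones of ribosomal proteins and late assembly factors fell in 13 of 14 cases, with a median of -0.58. BCCIP, whose yeast relative is a chaperone of the protein RPL23, had 46.8, 44.6 and 45.8 CPM in siEF and 197.6, 180.6 and 175.8 CPM in siNEG, a difference of -2.01 on the log2 scale (SE 0.06, adjusted P = 1.13e-14, edgeR). LTV1, a factor of small-subunit assembly, was at -1.61 (SE 0.06, adjusted P = 7.72e-13, edgeR). NMD3, the export adaptor of the large subunit, was the exception and rose by 0.40 (SE 0.08, adjusted P = 0.000307, edgeR), and EFL1 was the least lowered, at -0.31. Of 14 genes that control the translation of TOP mRNAs, 3 rose and 9 fell. TSC2 and TSC1, which restrain mTOR, rose by 0.88 and 0.67, and LARP4 and EIF4EBP1 were at -1.54 and -1.15. The mRNAs of MTOR and LARP1, named after their values were seen, were at -1.07 and -0.50.

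The mitochondrial ribosomal proteins, which build a separate ribosome for the few proteins encoded in mitochondrial DNA, gave the opposite picture to the cytoplasmic family. Of 78 tested genes, 67 fell and 2 rose, and 9 did not pass. The median log2 fold change was -0.58 against 0.16 for the cytoplasmic genes, and the fall passed a log2 fold change of 1 in 8 genes. MRPL17 had 32.1, 31.8 and 31.3 CPM in siEF and 92.7, 92.5 and 90.7 CPM in siNEG, a difference of -1.54 on the log2 scale (SE 0.06, adjusted P = 4.05e-13, edgeR), and MRPL42 was at -1.38 (SE 0.06, adjusted P = 6.67e-12, edgeR). The 2 that rose were MRPS6, at 1.70 (SE 0.05, adjusted P = 3.05e-14, edgeR), whose gene overlaps SLC5A3, and MRPL10, at 0.45 (adjusted P = 1.26e-05, edgeR). No test of the difference between the families was made. Under each of the scalings tried, the median of the mitochondrial genes was below 0 (from -0.64 to -0.49) and that of the cytoplasmic genes above 0 (from 0.10 to 0.25).

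**Figure D5:**
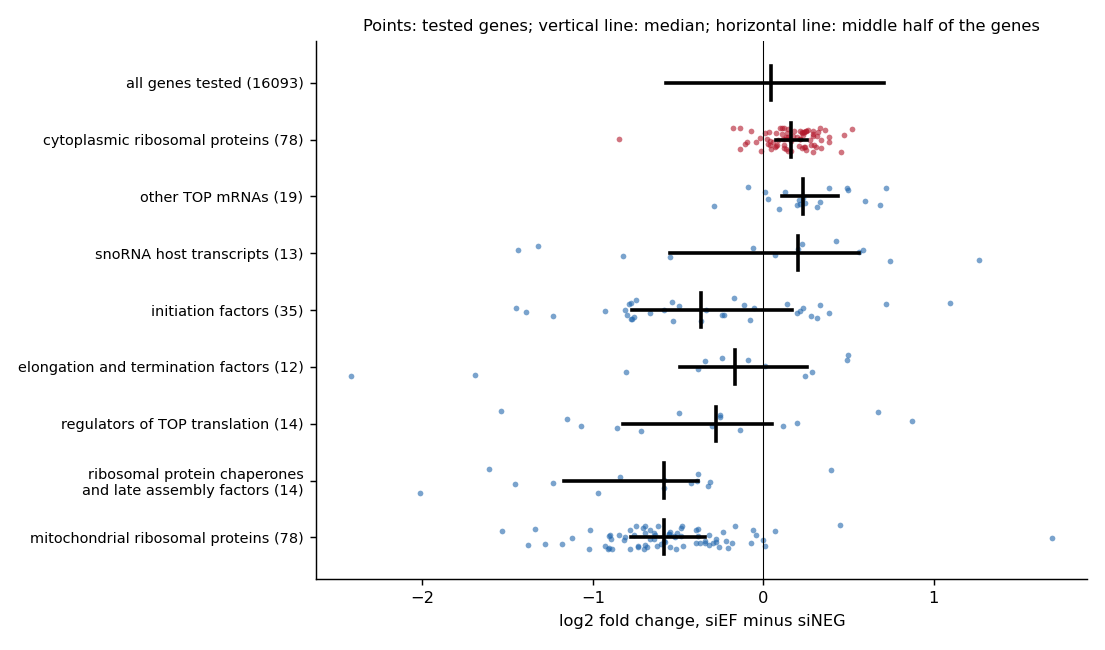
Log2 fold change of siEF against siNEG (horizontal axis) for each tested gene of 8 lists, with the median (vertical line) and the range between the quartiles (horizontal line), and the same for all 16093 genes tested. The cytoplasmic ribosomal proteins form a narrow band with a median of 0.16, and the mitochondrial ones lie mostly below 0 with a median of -0.58.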

How the data were processed

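RNA of TC32 cells was sequenced in siEF, siNEG and Media, with 3 libraries per group labelled as biological replicates. According to the labels, polyA RNA was purified on a column and made into libraries with a small RNA kit of NEB. The authors trimmed the reads with cutadapt 2.10, mapped them to hg38 with STAR and deposited expected counts per gene from RSEM, not scaled for depth. DESeq2 1.32.0 is named in the submitters' processing notes. Annotation release and strand setting were not given in the sources used here. Positions and lengths are from GENCODE release 44, which held 99.4% of the identifiers.

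Counts were rounded and passed through filterByExpr, which left 16093 genes. Scaling was by TMM, and the test was the quasi-likelihood F test of edgeR 4.0.16 in R 4.3.3, fitted once to all 9 libraries with a mean per group. P values were adjusted by Benjamini-Hochberg over all genes tested, with 0.01 as threshold. The SE was taken as the absolute log2 fold change over the root of F. On simulated data with 15720 genes tested, the procedure called 170 of 200 changed genes and 6 unchanged ones. The changed genes were few, were balanced up and down, and were all changed by more than the members' median of 0.16. The simulation therefore cannot show how the scaling or the power held for the broad and small changes of these data.

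Every library pair within a group differed by more than sampling noise (chi-square per degree of freedom 3.57 to 23.2). Whether replicates came from separate cultures was taken from the label alone.

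The members and lists were chosen with earlier results of these data known. Genes were named by fixed rules: the 6 highest and 6 lowest members of siEF against siNEG, the 3 highest and 3 lowest of siNEG against Media, the 5 highest and 3 lowest per kilobase, 13 genes by role, the paralog pairs, and the 2 highest and 2 lowest of each other list. Alternatives were other scalings, other filters, DESeq2 1.42.0, a fit to 6 libraries, unrounded counts, a block for replicate number and the omission of single libraries. Genes that these rules also named are not all reported here.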

Additional observations from a re-analysis of the deposited data

How the results depend on the processing

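The members' rise between siNEG and siEF kept its direction under every alternative run. With upper quartile scaling 57 were called higher and 1 (RPL39L) lower, against Media 1 was lower and the median was 0.32. With library totals 30 were higher and 3 lower, and 1 member (RPL13A) was higher in siNEG than in Media. With no filter 5 were lower (RPL27, RPL35 and RPS15 joined) and 1 was higher in siNEG than in Media; DESeq2 called 3 there. The cause was not tested. The replicate numbers did not pair the samples, with correlations of same-numbered deviations from -0.101 to 0.086, and the replicate block gave 41 higher and 2 lower and changed no other count beyond 1.5 times. Leaving out each library in turn gave 30 to 42 higher and 1 to 3 lower against siNEG (1 without siEF replicate 1), 43 to 54 higher and 1 to 3 lower against Media (1 without siEF replicate 1), 0 to 1 higher in siNEG than in Media, and medians of 0.13 to 0.19, 0.20 to 0.25 and 0.03 to 0.08. The difference in share of 0.726 percentage points ranged from 0.565 to 0.856, and was 1.39 without the 10 most abundant other genes of each library.

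Members near 0 changed sign without passing in any case: RPS7 was at 0.017 with upper quartile scaling, RPLP2 at -0.019 and RPS19 at -0.036 with library totals, RPLP2 at 0 and RPS19 at -0.018 with no filter. Leaving out single libraries gave -0.015 (without siEF replicate 2) to 0.077 for RPLP2 and -0.088 (without siEF replicate 2) to 0.089 for RPS19, which was at -0.009 without siNEG replicate 1 and -0.003 without siNEG replicate 2. Depth limits RPL3L and RPL10L, which were not tested.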
